A study of Mus musculus with 84 samples.

Results

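Neuropeptide Y (Npy) and 3 of its receptor genes (Npy1r, Npy2r and Npy5r) were measured by RNA sequencing in the CeA, the central nucleus of the amygdala, which is built mostly of inhibitory neurons. The 4 genes were taken by symbol from a table of 43629 genes, and all 4 were among the 16320 genes with enough reads to be tested. The animals were 84 outbred heterogeneous stock Collaborative Cross (HS-CC) mice, 43 females and 41 males, with a median age of 15 weeks when drinking tests began. After a few days with 5% ethanol, each animal had water and 10% ethanol side by side for 13 weeks, and ethanol stayed available until the animals were killed, in 4 passes. Every animal could drink, so there was no group without ethanol, and the comparison was between animals that drank little and animals that drank much. The CeA was cut by laser from 25 micron sections, and each animal gave 1 library of poly(A) RNA. Up to 3 animals came from 1 family, and neither the family nor the sequencing lane of each animal is given in the sources used here, so the animals were not fully independent and the p-values do not account for it.

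Neuropeptide Y is an inhibitory peptide that many GABA neurons release beside GABA, and in rodents its action in the amygdala is known to lower anxiety-like behaviour and ethanol drinking and to oppose corticotropin-releasing factor. Its receptors couple to inhibitory G proteins, which lower cyclic AMP and open potassium channels. The Y1 receptor (Npy1r) sits mainly on the cells that receive the peptide, the Y2 receptor (Npy2r) sits largely on nerve endings, where it limits release of the peptide itself and of other transmitters, and the Y5 receptor (Npy5r) is often made by the same neurons as Y1.

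In build GRCm38, Npy (ENSMUSG00000029819) lay at chr6:49822710-49829507 on the plus strand and Npy2r (ENSMUSG00000028004) at chr3:82538383-82548084 on the minus strand. Npy5r (ENSMUSG00000044014) at chr8:66679965-66688094 on the minus strand and Npy1r (ENSMUSG00000036437) at chr8:66697422-66706798 on the plus strand were neighbours that point away from each other, with 9327 bases between them. No other gene of the table overlapped any of the 4, so antisense reads of a listed gene could not enter their counts. The 250 bases before each gene's RefSeq start, which for Npy2r lies 1 base upstream of the table's, are shown because Npy and Npy2r moved in opposite directions across animals while Npy1r and Npy5r share a locus. The sequences are RefSeq's (GRCm38.p6) and are written in the direction of the gene. Capitals mark matches to 5 short motifs searched on both strands: the cyclic AMP response core TGACG, the E-box CACGTG, the GC box GGGCGG, and the TATA-like TATAAA and ATAAAA, the last 2 of which can overlap.
Npy, chr6:49822460-49822709: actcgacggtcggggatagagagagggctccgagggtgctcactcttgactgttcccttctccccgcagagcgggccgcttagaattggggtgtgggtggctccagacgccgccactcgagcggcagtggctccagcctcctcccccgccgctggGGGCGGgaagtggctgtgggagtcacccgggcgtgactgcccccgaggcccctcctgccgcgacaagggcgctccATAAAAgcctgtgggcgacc
Npy1r, chr8:66697172-66697421: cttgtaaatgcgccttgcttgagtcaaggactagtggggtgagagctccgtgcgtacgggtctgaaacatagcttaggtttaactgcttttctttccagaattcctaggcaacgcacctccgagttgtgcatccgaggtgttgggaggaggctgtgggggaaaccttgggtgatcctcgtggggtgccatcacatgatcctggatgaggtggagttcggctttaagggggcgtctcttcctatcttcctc
Npy2r, chr3:82548086-82548335: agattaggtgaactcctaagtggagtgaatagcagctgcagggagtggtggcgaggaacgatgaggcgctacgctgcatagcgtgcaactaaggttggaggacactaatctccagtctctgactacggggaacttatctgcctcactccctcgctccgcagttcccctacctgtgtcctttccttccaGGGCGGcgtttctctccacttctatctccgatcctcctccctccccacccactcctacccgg
Npy5r, chr8:66688095-66688344: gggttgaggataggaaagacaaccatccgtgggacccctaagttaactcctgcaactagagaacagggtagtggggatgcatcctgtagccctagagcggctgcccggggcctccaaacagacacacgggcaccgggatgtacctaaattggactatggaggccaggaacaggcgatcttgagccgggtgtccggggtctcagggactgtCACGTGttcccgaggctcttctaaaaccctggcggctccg
The Npy window held a GC box at positions -95 to -90 and ATAAAA at -20 to -15, counted back from the RefSeq start. Npy2r held a GC box at -62 to -57, Npy5r held an E-box at -40 to -35, and Npy1r held none of these letter strings. Of 32851 windows of the same length, 32.7% held GGGCGG, 16.97% ATAAAA, 6.02% CACGTG, 17.8% TGACG and 12.4% TATAAA. The Npy window was the richest of the 4 in G and C, at 69.2%, against 58.8% for Npy5r, 56.8% for Npy2r, 53.6% for Npy1r and a median of 52.4% over all windows.

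The libraries held 24118965 to 42036566 counts. Levels are given as CPM, the usual normalised read count, with library totals scaled by the trimmed mean of M-values (TMM). The dissected tissue was checked against marker genes, and the libraries differed widely in marker levels. Per kb of exon, Slc17a7, the glutamate transporter of cortical and basolateral excitatory neurons, had a median of 463 CPM. It was 64.2 for Gad1, which makes GABA, and 3.74 for Prkcd, a marker of lateral CeA neurons. Other CeA subtype markers had medians from 1.89 (Calcrl) to 24.5 (Tac2), except Sst, which is also an interneuron marker, at 585. The summed level of the 7 cortical and basolateral markers ran from 1108 to 7115 CPM in females and from 807 to 8399 CPM in males, and that of 6 choroid plexus markers, led by Ttr, ran from 8.09 to 20086 CPM in females and from 7.41 to 24229 CPM in males. Of the 12 marker lists, 3 genes were at 0 in some libraries: Sim1 in 10, Folr1 in 4 and Ccdc153 in 1. All results below describe libraries with such differences in marker levels. In bulk tissue, fewer cells of a type cannot be told from less RNA per cell. Whether the dissections held neighbouring regions in unequal amounts was not tested.

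Npy was the most abundant of the 4 transcripts. Its level was 23.6 CPM in the lowest library, 64.6 at the median and 395 in the highest. A single animal, male replicate 39, made the top of that range: its 395 CPM rested on 12042 counts, and the next highest library, female replicate 4, had 129.8 CPM. Without that male the coefficient of variation fell from 59.0% to 31.6%, and the other 83 libraries spanned a 5.49-fold range. Females (34.8, 65.6 and 129.8 CPM as lowest, median and highest) and males (23.6, 63.4 and 395 CPM) overlapped almost entirely.

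Npy2r was the most variable of the receptors. It ran from 6.34 CPM in female replicate 42 through a median of 32.3 to 69.5 CPM in female replicate 40, an 11.0-fold range with no library standing apart. The median was 26.99 CPM in females and 36.8 CPM in males, with overlapping ranges of 6.34 to 69.5 and 9.18 to 58.2 CPM. Npy1r ran from 7.63 through 20.95 to 35.4 CPM, and the sexes had medians of 20.5 CPM in females and 21.2 CPM in males. Npy5r, the scarcest, ran from 3.16 through 5.07 to 9.16 CPM, on 84 to 279 counts per library, and its medians were 5.08 CPM in females and 5.03 CPM in males. At its median count, counting alone would give Npy5r a coefficient of variation of 7.88%, under the 22.4% observed.

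**Figure D1:**
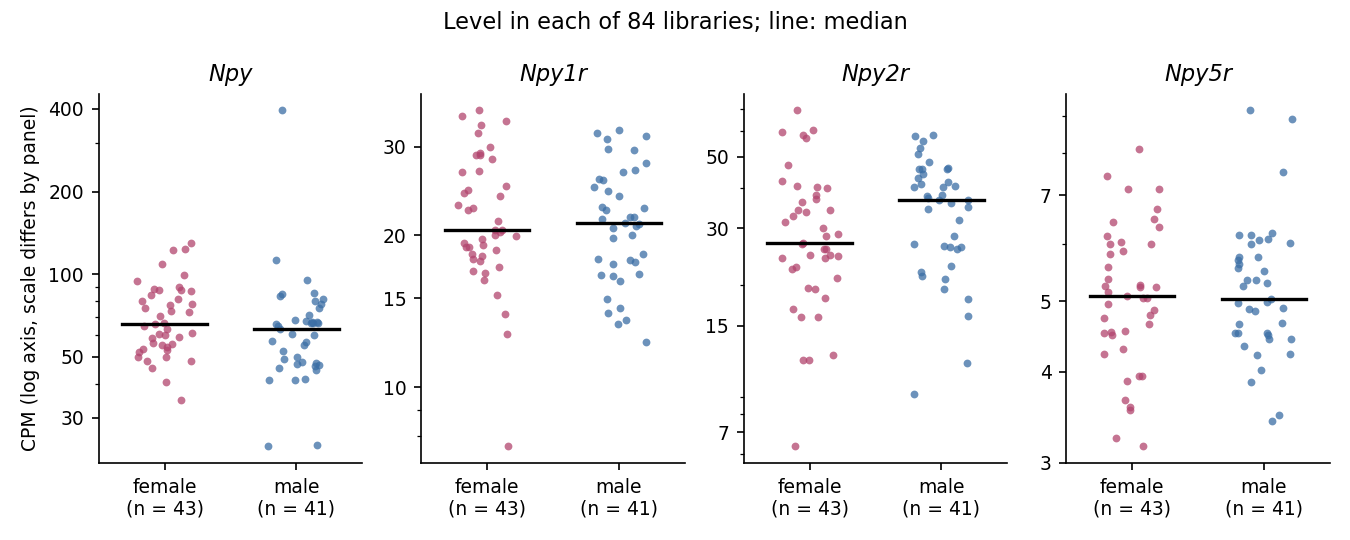
Level of each gene (CPM, log axis whose scale differs by panel) in 43 females and 41 males, 1 point per library, with the median as a line. The sexes overlap for all 4 genes, and 1 male at 395 CPM stands apart for Npy.

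Divided by exon length (566 bases for Npy, 3007 for Npy1r, 3383 for Npy2r and 2314 for Npy5r), the median levels per kb were 114 CPM for Npy, 9.54 for Npy2r, 6.97 for Npy1r and 2.19 for Npy5r. Npy was above both Npy2r and Npy1r per kb in 84 of 84 animals. Npy2r and Npy1r, neighbours in this order, did not separate: Npy2r was the higher in 58 of 84 animals, and their ratio ran from 0.159 to 3.15. Npy1r was above Npy5r in 84 of 84 animals, while Npy2r was above it in 82.

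The spread beyond counting error, which edgeR gives as a biological coefficient of variation, was 0.404 for Npy, 0.271 for Npy1r, 0.426 for Npy2r and 0.216 for Npy5r, against a median of 0.217 over all genes tested. Npy2r was thus more variable than 81.6% of genes and Npy, with male replicate 39 included, than 79.8%, while Npy5r lay at the middle. None of the 4 differed by sex in edgeR's robust quasi-likelihood test with Benjamini-Hochberg adjustment, where 0.0919% of all genes were called and 3.81% had an unadjusted p under 0.05. The widest difference was that of Npy2r, 0.20 ± 0.14 (SE) on the log2 scale, higher in males (unadjusted p = 0.154, adjusted p = 0.986).

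The study's main question was how expression followed ethanol preference, the volume of ethanol drunk over the total volume. Mean preference over the 13 weeks ran from 0.0436 through a median of 0.229 to 0.759 in females and from 0.0262 through 0.153 to 0.713 in males. Npy in females had medians of 60.6, 80.2, 75.7 and 55.4 CPM from the lowest to the highest of 4 equal groups by mean preference (10 or 11 animals each), and in males of 55.1, 64.5, 62.8 and 66.6 CPM. The groups overlapped, and the highest median lay in the middle of the range in females. Npy1r medians by group were 19.9, 23.9, 21.5 and 20.02 CPM in females and 19.7, 23.4, 20.8 and 23.7 CPM in males. Npy2r medians were 32.7, 28.8, 22.7 and 30.2 CPM in females and 36.6, 39.1, 31.4 and 37.2 CPM in males. Npy5r medians were 5.15, 4.74, 5.78 and 5.06 CPM in females and 5.99, 4.94, 4.82 and 5.10 CPM in males. In no gene did the medians step in 1 direction from the lowest to the highest group in either sex.

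In the fit over all animals with sex as a term, the log2 change per 0.5 rise in mean preference was 0.23 ± 0.22 (SE) for Npy, -0.09 ± 0.14 for Npy1r, 0.0079 ± 0.20 for Npy2r and -0.05 ± 0.11 for Npy5r. None of the 4 was called (edgeR, adjusted p = 1.00 for each), and 0% of the 16320 genes were called in this comparison, with 3.94% (643 genes) at an unadjusted p under 0.05. None of the 4 was called in females (Npy 0.016 ± 0.21), where 0% of genes were called and 6.95% had an unadjusted p under 0.05, or in males (Npy 0.52 ± 0.39), where these shares were 0% and 1.65%. No member was under 0.05 unadjusted in these 3 fits. The slope of Npy in males rested on male replicate 39 and was -0.11 without it, and in all animals it was then -0.04.

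Week 1 preference, the first response to ethanol, gave the steepest slope of the 4 genes over all animals. Npy rose by 0.56 ± 0.17 log2 per 0.5 preference at an unadjusted p of 0.00165, which did not pass edgeR's adjusted threshold (adjusted p = 0.943, 0.0306% of all genes called and 3.25% under 0.05 unadjusted). Male replicate 39 had the second highest week 1 preference, 0.633, together with the highest Npy. Without that animal the slope over the other 83 was -0.0040, and in males it went from 0.74 ± 0.26 (adjusted p = 0.953, 0.0368% of genes called, 5.17% under 0.05 unadjusted) to -0.29. In females alone it was 0.27 ± 0.21, with 0% of genes called and 2.26% under 0.05 unadjusted. Npy1r (0.014 ± 0.13), Npy2r (-0.12 ± 0.19) and Npy5r (0.07 ± 0.10) had slopes over all animals smaller than their SE.

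Library numbers in the labels fall into 4 runs, which may or may not be batches. Within the runs the week 1 slope of Npy was 0.16 ± 0.36, -0.25 ± 0.37, 0.097 ± 0.41 and 1.12 ± 0.24. The last, in the 31 animals of run 4, was the only slope of a member to pass (edgeR, adjusted p = 0.0168, 0.141% of genes called), and it was -0.14 without male replicate 39, which is in that run. On mean preference, the slopes of Npy were 0.33 ± 0.57, -0.15 ± 0.39, 0.27 ± 0.52 and 0.17 ± 0.34, and those of Npy2r -0.84 ± 0.63, 0.37 ± 0.38, -0.17 ± 0.64 and -0.0091 ± 0.32. Without male replicate 39 the value of Npy in run 4 was -0.29 ± 0.24. Neither gene kept 1 direction over the runs, with or without that animal.

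**Figure D2:**
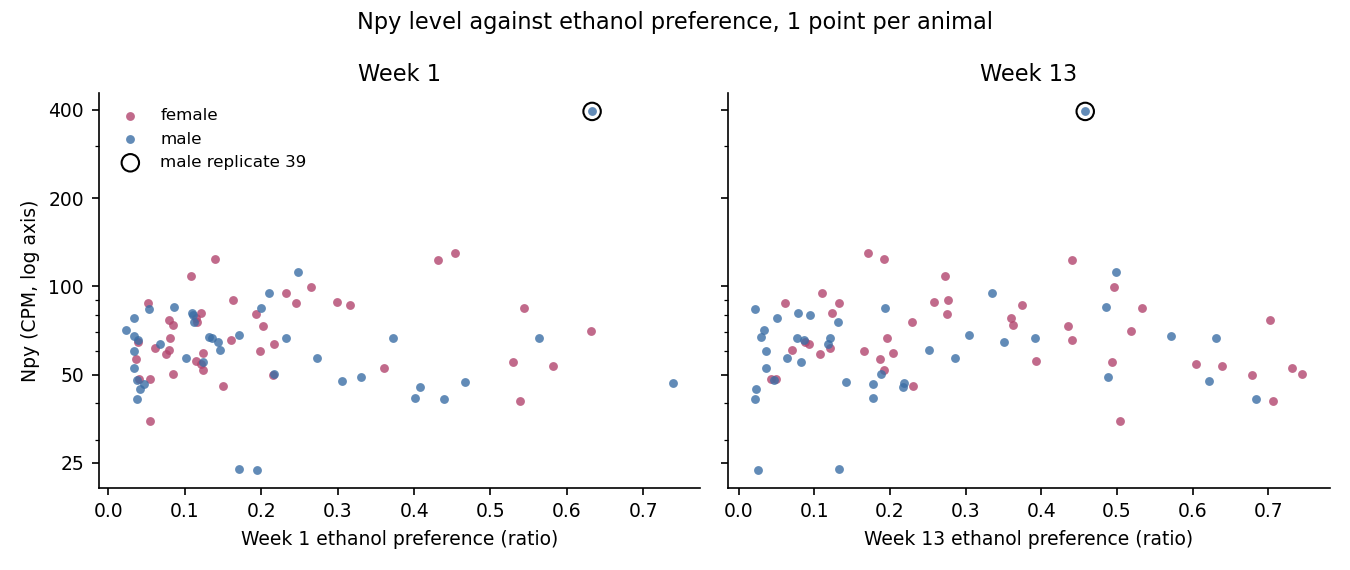
Npy (CPM, log axis) against ethanol preference (ratio of volumes) in week 1 and week 13, 1 point per animal, females and males in different colours. The circled male replicate 39 lies at 395 CPM and a week 1 preference of 0.633, far above all other animals, which stay at or under 129.8 CPM at every preference.

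At week 13 the slopes of Npy pointed in opposite directions in the sexes: -0.24 ± 0.16 in females and 0.69 ± 0.27 in males, and neither passed edgeR's test (adjusted p = 0.832 and 0.984). In females 0.0368% of genes were called and 8.67% were under 0.05 unadjusted, in males 0% and 3.74%. The difference between the sexes, tested as an interaction, was 0.93 ± 0.32 (unadjusted p = 0.0044, adjusted p = 0.592, 0.00613% of genes called, 6.23% under 0.05 unadjusted), and it dropped to 0.40 (adjusted p = 0.927) without male replicate 39. The male slope was then 0.17. Over all animals the week 13 slopes were 0.19 ± 0.16 for Npy, -0.05 ± 0.11 for Npy1r, -0.04 ± 0.17 for Npy2r and -0.06 ± 0.09 for Npy5r, with 0% of genes called and 6.00% under 0.05 unadjusted. That of Npy was -0.059 without male replicate 39. The interactions of sex with mean preference and with week 1 preference called 0% of genes each (3.24% and 4.31% under 0.05 unadjusted), and for Npy they were 0.50 ± 0.44 and 0.48 ± 0.36. Both changed sign without male replicate 39, to -0.13 and -0.57.

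Week by week, Npy over all animals had its 2 steepest slopes in the first 2 weeks, 0.56 and 0.50 ± 0.16, and ran between -0.22 and 0.31 afterwards. In the same 84 animals Npy1r was below 0 in 11 of 13 weeks (-0.21 to 0.014), Npy2r above 0 in 8 (-0.12 to 0.08) and Npy5r above 0 in 3 (-0.09 to 0.07). Without male replicate 39, the 13 weekly slopes of Npy lay between -0.18 and 0.04, those of Npy1r between -0.17 and 0.07 and those of Npy2r between -0.09 and 0.08. Npy5r was then above 0 in 0 of 13 weeks (-0.10 to -0.019). None of the 4 was called in any of the 130 weekly fits of preference or intake, which share the same libraries. Shares over all genes are given here only for the 78 weekly fits with all libraries, not for those without male replicate 39. Over these 78 fits, between 0% and 3.50% of all genes were called, and between 1.26% and 12.7% were under an unadjusted p of 0.05. For the members there were 14 such results, 13 of them for Npy in fits that held male replicate 39, and the last for Npy5r against week 13 intake in females.

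**Figure D3:**
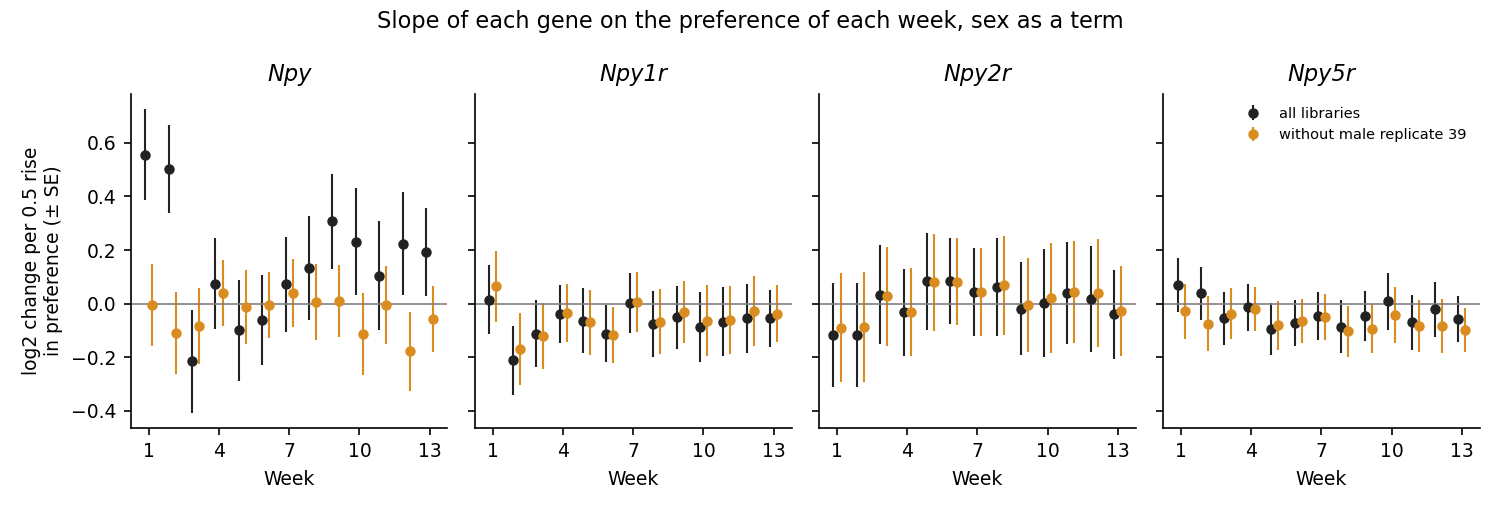
Log2 change per 0.5 rise in the preference of each week (points) with its standard error (bars), sex as a term, for all 84 libraries and for the 83 without male replicate 39. Removing that animal takes the slopes of Npy in weeks 1 and 2 from 0.56 and 0.50 to -0.0040 and -0.11, while the slopes of the receptors move by less.

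Intake, in grams of ethanol per kg of body weight, takes account of how much was drunk. The slope of Npy per 10 g/kg was 0.21 ± 0.22 on mean intake, 0.56 ± 0.19 on week 1 intake and 0.22 ± 0.16 on week 13 intake, and no member was called in edgeR's test (adjusted p of Npy 0.936, 0.989 and 0.557), where 0.0490%, 0.0245% and 0.411% of genes were called and 7.87%, 3.52% and 12.7% were under 0.05 unadjusted. Without male replicate 39 these slopes of Npy were 0.010, 0.015 and -0.051. Npy5r was lower at higher week 13 intake in females by an amount that did not pass: -0.24 ± 0.11 (unadjusted p = 0.033, adjusted p = 0.326). In that fit 3.50% of all genes passed the adjusted threshold and 12.6% were under an unadjusted p of 0.05.

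Male replicate 39 was the highest of the 84 animals for Npy (395 CPM against a median of 64.6) and for Npy5r (9.16 against 5.07 CPM), but 78th for Npy1r (14.05 CPM) and 54th for Npy2r (26.2 CPM). Its total count was 46th of 84, and its mean preference of 0.352 ranked 22nd. Its score on activity-regulated genes, the mean z-score of 10 genes such as Fos that neurons switch on after firing, was the third highest, while that on somatostatin and Npy interneuron markers ranked 26th. It also lay near the low end on choroid plexus (80th), ependyma (79th) and microglia (79th) and ranked 14th on a score of abundant short transcripts, and its other 7 marker scores ranked between 21st and 64th.

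The peptide and its Y2 receptor moved in opposite directions across animals. Over 84 animals, log2 CPM of Npy and Npy2r had a Pearson's r of -0.446 and a Spearman's rho of -0.493 (permutation test, 2-sided, adjusted over 6 pairs, p = 0.0003 and 6e-05, the latter the smallest these permutations can give after adjustment). The sign was the same in each of the 4 runs of library numbers (r = -0.494, -0.291, -0.509 and -0.491), with an r of -0.636 in females and -0.284 in males, whose difference was not tested. Leaving out the 2 animals with the most extreme Npy gave -0.506. Only 3.22% of all genes had a rho with Npy as low as that of Npy2r. After sex, run and the scores of 12 marker lists were fitted out, however, r was -0.0058 (permutation test, adjusted p = 0.959). Among the residuals of this fit to all 84 animals, r was -0.101 with the point of male replicate 39 left out. Within the runs it went both ways (-0.206, 0.296, -0.223 and -0.021).

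The neighbouring receptor genes showed the reverse. Npy1r and Npy5r had an r of 0.0075 and a rho of -0.034 across animals (permutation test, adjusted p = 0.947 and 0.759). After sex, run and the 12 marker scores were fitted out, r was 0.421 (permutation test, adjusted p = 0.0003). Among the residuals of this fit to all 84 animals, it was 0.502 with the point of male replicate 39 left out. The same residuals had r above 0 in all 4 runs (0.665, 0.302, 0.093 and 0.469). Of all other genes tested, 0.190% had residuals that followed those of Npy1r at least as closely as Npy5r did, and 0.901% followed those of Npy5r as closely as Npy1r did. This adjustment was chosen after the data were seen. Together with sex and run, the marker scores took up 74.2% of the variance of Npy1r and 40.9% of that of Npy5r. The shares were 75.6% for Npy2r and 62.1% for Npy, against a median of 49.4% over all genes. Permuting residuals takes no account of the 16 terms fitted out, so the p-values of residual relations are too small, by an amount not computed.

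**Figure D4:**
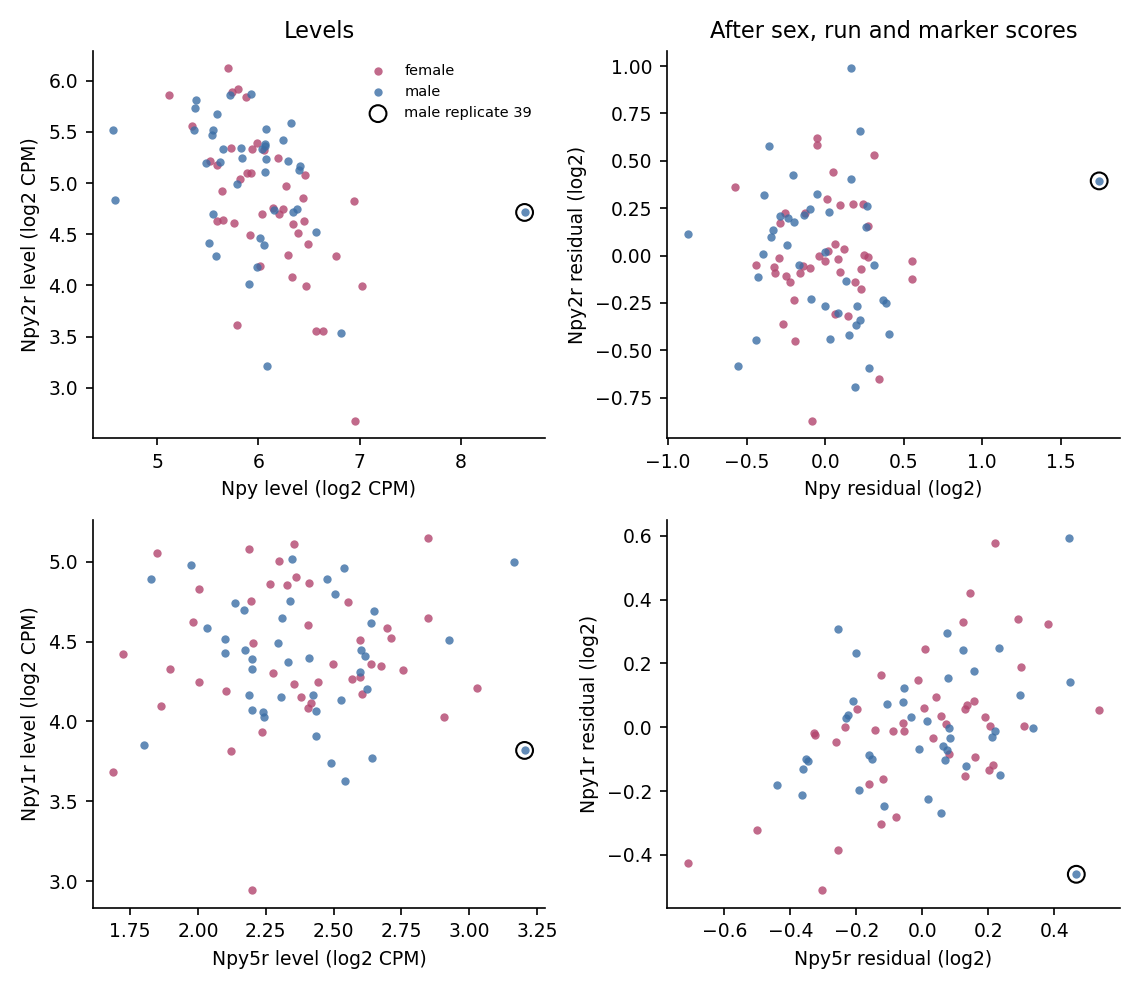
Npy2r against Npy (top) and Npy1r against Npy5r (bottom), as levels (log2 CPM, left) and as residuals after sex, run and 12 marker scores (log2, right), 1 point per animal, with male replicate 39 circled. The inverse relation of Npy and Npy2r (r = -0.446) is no longer seen in the residuals (r = -0.0058), whereas Npy1r and Npy5r are related in the residuals (r = 0.421) but not as levels (r = 0.0075).

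Npy and Npy5r were weakly related, at r = 0.298 and rho = 0.152 (permutation test, adjusted p = 0.0175 and 0.504), and r as levels was 0.174 without male replicate 39 (permutation test, adjusted p = 0.271). After sex and run were fitted out r was 0.373, and after the 12 marker scores as well it was 0.328 (permutation test, adjusted p = 0.0013 and 0.0076). In the residuals of the latter fit to all 84 animals, r dropped to 0.255 with the point of male replicate 39 left out. It was below 0 in run 2 (0.239, -0.295, 0.185 and 0.541 in the 4 runs). The other 3 pairs, Npy with Npy1r (r = 0.05), Npy1r with Npy2r (r = -0.10) and Npy2r with Npy5r (r = -0.15), did not pass (permutation test, adjusted p = 0.768, 0.525 and 0.357).

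The 4 genes followed different tissue markers. Each was set against 12 lists, scored as the mean z-score of the list's genes with members left out, and the 48 relations were tested by permutation with adjustment over all of them. Npy1r fell as oligodendrocyte markers such as Mbp and Mag, genes of the myelin sheath, rose (r = -0.743, 5 of 5 markers with a negative rho), and it followed cortical and basolateral excitatory markers (r = 0.586, 7 of 7 positive) and neurogliaform markers (r = 0.588, 5 of 6 positive). Among the neurogliaform markers the exception was Gad1, at a rho of -0.505, and Lamp5 was at 0.094. Npy1r ran against CeA neuron subtype markers, at r = -0.568 with 7 of 7 negative. All 4 of these passed at an adjusted p of 6.9e-05, and kept their sign in all 4 runs of library numbers. In all, 7 of the 12 lists passed for Npy, 7 for Npy1r, 10 for Npy2r and 6 for Npy5r. After sex and run were fitted out these counts were 8, 7, 9 and 3. The same counts were not made for other genes, so they cannot be read as a trait of the 4 members. Sex, run and the 12 scores took up a median of 49.4% of the variance over all genes tested.

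Npy2r followed medial amygdala and hypothalamic markers (r = 0.610, 6 of 6 positive), ependyma (r = 0.545, 6 of 6) and choroid plexus (r = 0.456, 6 of 6), the cells that line the ventricles and make the cerebrospinal fluid. It ran against activity-regulated genes (r = -0.504, 10 of 10 negative). Npy had the opposite sign on these 4 lists: -0.432 with medial amygdala and hypothalamic markers, -0.355 with ependyma, -0.313 with choroid plexus and 0.427 with activity-regulated genes. These 8 relations passed at adjusted p-values up to 0.0072 (permutation test) and each kept its sign in all 4 runs. Spearman's rho of these 12 relations of Npy, Npy1r and Npy2r had the same signs and passed at adjusted p-values up to 0.0021 (permutation test). Without the 2 animals of most extreme list score, the r of these 12 lay between -0.709 and -0.282 or between 0.406 and 0.563. With astrocyte markers, Npy had r = -0.422 (5 of 5 negative) and Npy2r 0.392 (4 of 5 positive, Aldh1l1 being the exception at a rho of -0.08), both past the threshold (permutation test, adjusted p = 0.00028 and 0.00087). Striatal and intercalated markers gave 0.291 for Npy and -0.321 for Npy2r (permutation test, adjusted p = 0.0125 and 0.0066). Cortical and basolateral markers gave 0.305 and -0.248 (permutation test, adjusted p = 0.0130 and 0.0370). This last relation of Npy2r was above 0 in runs 2 and 3 (0.110 and 0.068). After sex and run it did not pass (r = -0.217, permutation test, adjusted p = 0.078).

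Npy5r had weaker relations, the strongest with ependyma (r = -0.390, 6 of 6 negative) and with striatal and intercalated markers (r = 0.356, 6 of 7 positive). Both passed (permutation test, adjusted p = 0.0006 and 0.0024), and the first changed sign in run 1 (0.137). On the striatal and intercalated list Foxp2 had the highest rho (0.443), and the exception was Tshz1 (-0.013). With CeA neuron subtypes, r of Npy5r was 0.283 (permutation test, adjusted p = 0.0167), and 0.215 after sex and run (adjusted p = 0.0789). With the markers of Npy and somatostatin interneurons, Npy passed by rank but not by Pearson's r (rho = 0.250 and r = 0.221, permutation test, adjusted p = 0.0339 and 0.0669). For Npy, 3 of 6 genes of this list had a positive rho and 3 a negative one, from 0.579 (Sst) and 0.516 (Cort) to -0.619 (Nos1). Npy2r had the same sign on it (r = 0.415, 5 of 6 positive, permutation test, adjusted p = 0.00031). Npy and Npy2r also shared a sign on CeA subtype (0.122 and 0.207) and oligodendrocyte markers (-0.079 and -0.097), where neither passed. With neurogliaform markers, r of Npy was 0.148 (permutation test, adjusted p = 0.251), and 0.243 after sex and run (adjusted p = 0.047). On that list 3 of 6 genes had a positive rho with Npy and 3 a negative one, from 0.653 (Lamp5) to -0.353 (Ndnf). Npy1r, like Npy, followed activity-regulated genes (r = 0.432, 10 of 10 positive, permutation test, adjusted p = 0.00016), though not in run 1 (r = -0.158). The part of these marker differences in the relations of the members to each other and to drinking was not tested beyond the fits given here.

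**Figure D5:**
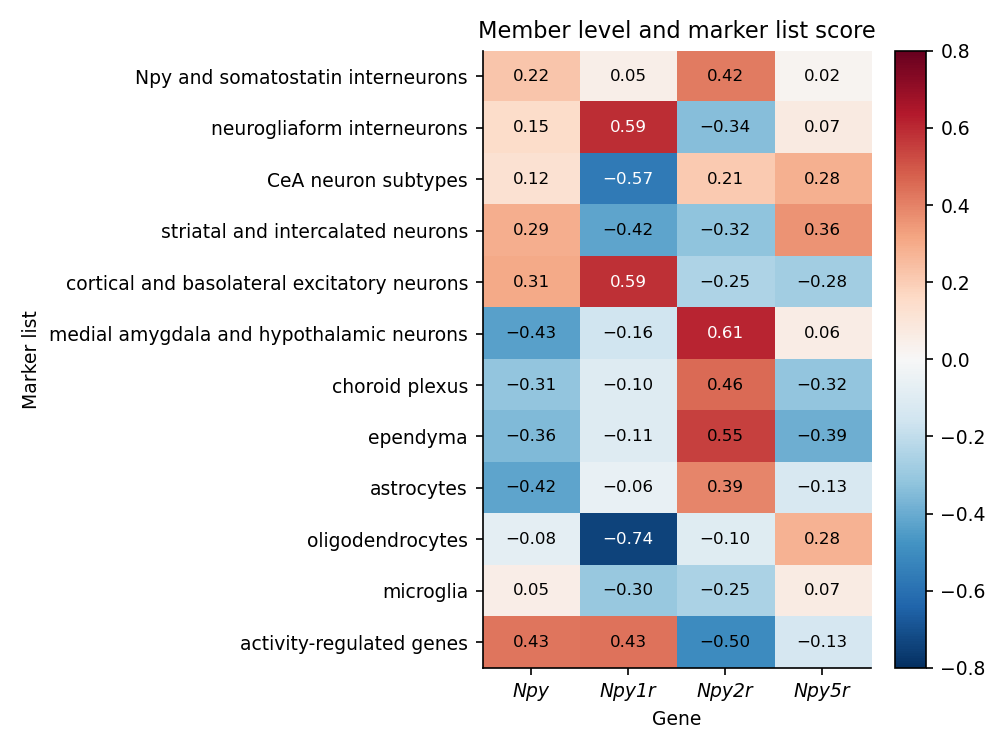
Pearson's r over 84 animals between the log2 CPM of each gene (columns) and the score of each of 12 marker lists (rows), red for positive and blue for negative. Npy and Npy2r have opposite signs on medial amygdala, ependyma, choroid plexus, astrocyte and activity-regulated lists, and also on striatal, cortical, neurogliaform and microglia lists. Npy1r has the most extreme value, -0.743 with oligodendrocytes.

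The genes whose level followed each member most closely were taken as the 5 with the highest Spearman's rho among 13122 genes. For Npy these were Brk1 (0.771), Sh3bgrl3 (0.765), Nhp2 (0.750), Hagh (0.719) and Calm2 (0.718), and the lowest rho was that of Itga3 (-0.763). The 100 genes nearest to Npy had a median exon length of 2103.5 bases, against 4007.5 over all 13122. Npy, itself 566 bases long, also rose with the mean score of abundant transcripts of at most 1000 bases (r = 0.448, rho = 0.479, permutation test, adjusted p = 4e-05), though not in run 2 (r = -0.130). Npy5r, 2314 bases long, rose with this score too (r = 0.270, permutation test, adjusted p = 0.0268). Npy1r and Npy2r did not pass (r = -0.182 and -0.161), but after sex and run Npy1r did (r = -0.274, permutation test, adjusted p = 0.0163). The part of transcript length in these relations was not tested.

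Npy1r was nearest to Neurod1 (0.755) and Lhx2 (0.731), transcription factors of forebrain neurons, Fam155a (0.745), Kcnj3 (0.724) and Dab1 (0.722), a reelin signalling adaptor, and farthest from the myelin gene Mag (-0.739). Kcnj3 encodes a G protein-gated potassium channel subunit. Npy2r had the closest neighbours of the 4 genes: Galnt16 (0.864), Pcdh20 (0.844), Trpc4 (0.831), Cpne2 (0.829) and Tmem255a (0.822), with Tyro3 lowest (-0.822). Npy5r had the loosest: Asah1 (0.588), Gas2 (0.569), Cd302 (0.551), Nsmaf (0.547) and Snx24 (0.542), with Pcyt1b lowest (-0.596). These are descriptions over 84 animals that share the differences in marker levels given above.

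The rest of the pathway was read from a list of 27 genes, of which 22 were tested. Other ligands and receptors were near absent: Npy4r had 0 to 21 counts per library, Npy6r and Pyy 0 to 2 and Ppy 0 to 9. Of the 22 genes, which make the mature peptide (Pcsk1, Pcsk2, Cpe, Pam), cut it (such as Dpp4 and Mme) or carry the receptor signal (G proteins, potassium channels, adenylyl cyclases and Creb1), 0 rose and 0 fell past the adjusted threshold in any of the 16 comparisons. Between 0% and 0.411% of all genes were called in these comparisons. With mean preference in all animals, 9 slopes were above 0 and 13 below, with a median of -0.011 against -0.0016 over all genes tested. Of these slopes 0 were under an unadjusted p of 0.05, against 3.94% of all genes. Week 13 intake had 5 of 22 under an unadjusted p of 0.05, against 12.7% of all genes. These were led by Fap, a peptidase with 5 to 453 counts per library (1.03 ± 0.32, unadjusted p = 0.00174, adjusted p = 0.0904 in edgeR's test), and Kcnj5, a potassium channel subunit (-0.55 ± 0.23, adjusted p = 0.249).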

How the data were processed

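RNA of 84 CeA dissections was sequenced, 1 library per animal. Libraries were stranded and poly(A)-selected from RNA with a quality score above 7, up to 6 to a lane, per the labels' protocols. The deposited values are raw read counts per gene, without normalization, made by the authors with STAR and Subread featureCounts 1.6.0 on build GRCm38, with FastQC and DESeq2 also named, per the submitters' processing notes. Strand handling in the counting, the annotation release and filters were not given in the sources used here. Of the table's other columns, 3 that look like samples and 5 empty ones were not used.

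Genes were filtered with edgeR's filterByExpr by sex (minimum count 10, total 15), scaled by TMM and fitted with edgeR 4.0.16's robust quasi-likelihood test on the deposited counts in R 4.3.3, with Benjamini-Hochberg adjustment over 16320 genes at 0.05. SE is the absolute slope over the square root of F. Library numbers fall into 4 runs whose meaning is not given, and these served as possible batches. Relations used log2 CPM with a prior count of 2 and 100000 permutations (NumPy 2.4.6). Residuals were permuted without allowing for the terms fitted out, so their p-values are too small. Depth was 24118965 to 42036566 counts, and raw counts of 84 to 12042 lie behind the members' values. In counts simulated for the fit of mean preference in all animals, over 16320 genes, 95% of 100 genes with a slope of 1 and 97% of 100 with a slope of 2 were called. Of 16120 unchanged genes, 10 were called. These counts were drawn independently, without tissue differences, families or an outlying animal. Slopes as small as those of the members in that fit (-0.09 to 0.23) were not simulated. Named genes were the 4 members, and the 5 genes with the highest and the 1 with the lowest rho with each among genes averaging 1 or more in log2 CPM. Of the lists, named genes were examples with the smallest p and genes given for their level or as exceptions. The members and lists were chosen with earlier results of these data known. Alternatives were DESeq2 1.42.0, limma-voom (limma 3.58.1), no filter, no robust step, run or marker scores as covariates, ranks, mean intake as a covariate, raw library totals, and leaving out male replicate 39.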

Additional observations from a re-analysis of the deposited data

How the results depend on the processing

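No member passed the threshold of 0.05 in any of the 16 comparisons under any alternative run. In the main fits at most 0.411% of all genes were called, so this count is not particular to the members. The shares of all genes called under the alternatives are not given here. Among 65 slopes and 421 alternative values, 378 kept their direction and their side of the threshold and 43 changed sign, all but 1 of them slopes that had not passed, and the cause was not tested. Without male replicate 39, these slopes changed sign: mean preference in all animals Npy -0.042, mean preference in males Npy -0.11, Npy1r 0.039, Npy2r 0.00086, Npy5r -0.066, week 1 preference in all animals Npy -0.0040, Npy5r -0.028, week 1 preference in males Npy -0.29, Npy5r -0.0056, week 13 preference in all animals Npy -0.059, week 1 intake in all animals Npy5r -0.041. The others there were week 13 intake in all animals Npy -0.051, sex difference Npy5r -0.00067, the sex term of mean preference Npy -0.13, the sex term of week 1 preference Npy -0.57, week 1 preference in run 4 Npy -0.14. With limma-voom, these slopes changed sign: mean preference in all animals Npy2r -0.060, mean preference in females Npy -0.032, Npy2r -0.035, mean preference in males Npy1r 0.0047. With run as a covariate, these slopes changed sign: mean preference in all animals Npy2r -0.0056, mean preference in females Npy -0.012, Npy2r -0.011, week 1 preference in all animals Npy1r -0.084, week 1 preference in females Npy2r 0.053, week 1 preference in males Npy1r -0.00072, week 13 preference in males Npy1r -0.0094. The others there were week 1 intake in all animals Npy1r -0.029, the sex term of mean preference Npy1r -0.017, the sex term of week 1 preference Npy2r -0.066, the sex term of week 13 preference Npy1r -0.020. With ranks of the drinking measure, these slopes changed sign: mean preference in all animals Npy2r -0.10, mean preference in females Npy2r -0.053, mean preference in males Npy1r 0.079, Npy5r -0.0055, week 1 preference in females Npy1r 0.012, mean intake in all animals Npy1r 0.048, week 13 intake in all animals Npy1r 0.0022. With 4 marker scores as covariates, these slopes changed sign: mean preference in all animals Npy2r -0.072, Npy5r 0.061, week 1 preference in all animals Npy1r -0.067, week 13 preference in all animals Npy5r 0.030. With mean intake as a covariate, these slopes changed sign: sex difference Npy 0.0043. The only slope that had passed was that of Npy on week 1 preference within run 4 (1.12 ± 0.24, edgeR, adjusted p = 0.0168, 0.141% of genes called), which was -0.14 without male replicate 39.

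Among 22 relations and 72 alternative values, 63 kept direction and side. Residuals after sex, run and 12 marker scores, chosen after seeing the data, took r of Npy with Npy2r to -0.0058 and of Npy with Npy1r to -0.13 and raised that of Npy1r with Npy5r to 0.421, and a short transcript score in place of the marker scores raised the last to 0.281. Npy with Npy5r dropped to 0.174 without male replicate 39, though it was 0.373 after sex and run. For Npy5r, r with cortical and basolateral markers dropped to -0.226 after sex and run and to -0.139 with the short transcript score as well, and r with oligodendrocyte markers to 0.191 and 0.094. Its r with CeA neuron subtypes dropped to 0.215 after sex and run. No paired analysis was possible because replicate numbers only follow the order of listing and pair no animals. Depth limited Npy5r most, with 84 counts in its lowest library, and the medial amygdala and hypothalamic score includes Sim1, which was at 0 in 10 libraries. All weekly fits reuse the same 84 libraries, families and lanes could not enter a fit, and tissue make-up was measured only through marker scores.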
